A study of Mus musculus with 6 samples.

Results

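The nuclear genes for the subunits of the 5 oxidative phosphorylation complexes were examined in mouse leukemia cells as 1 gene family. A gene was a member if its symbol in the platform's probe annotation began as those of the complex I (Nduf), complex II (Sdh), complex III (Uqcr), complex IV (Cox4 to Cox8) and complex V (Atp5) subunits do, which gave 118 of 45281 probes and 78 of 19057 genes. Complex I held 34 of them, complex II 4, complex III 7, complex IV 17 and complex V 16. Of the 78 genes, 68 had a mean signal over all 6 arrays above the background limit, and all medians and counts by complex concern these 68 unless stated (31 of complex I, 3 of complex II, 6 of complex III, 13 of complex IV and 15 of complex V). The other 10 were Ndufs1, Ndufb2, Ndufb4, Sdha, Uqcrfs1, Cox4i2, Cox7b2, Cox8b, Cox8c and Atp5md.

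The complexes sit in the inner mitochondrial membrane. Complexes I and II pass electrons from NADH and succinate to coenzyme Q, complex III passes them on to cytochrome c, and complex IV passes them to oxygen. Complexes I, III and IV pump protons, and complex V, the ATP synthase, uses the proton gradient to make ATP. Most subunits are encoded in the nucleus, a small number of core subunits of complexes I, III, IV and V in mitochondrial DNA, and both sets must be made in balance for the complexes to assemble.

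RNA of T cell acute lymphoblastic leukemia (T-ALL) cells was hybridised to Illumina bead arrays, 1 array per sample. The leukemia was induced by NOTCH1, and the cells, from bone marrow of male mice 4 weeks after transplantation, were sorted as positive for GFP, CD4 and CD8. The 6 arrays form 2 groups of 3: control, labelled as wild type, and Klf4-deficient, labelled as knock out. Both groups carry the NOTCH1-driven leukemia and so differ by label only in Klf4, a zinc-finger transcription factor. The sources used here do not give the allele, the Cre driver or the age of the animals. They also do not say that a group's 3 samples were 3 animals, so the spread behind each p-value is that between these samples and may be technical.

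The brightest Klf4 probe went against the group labels. It gave a signal of 44, 18.4 and 24.6 on control arrays 1 to 3 and 80.6, 46 and 85.4 on the arrays labelled Klf4-deficient. The signal of the 2 other Klf4 probes did not reach the background limit on any of the 6 arrays. Whether any of the 3 probes lies in the deleted part of Klf4 could not be read from the labels, and a probe outside it checks nothing. The arrays are therefore called control and deficient-labelled, and every direction rests on the labels.

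All 14 measured genes of a list for double-positive thymocytes had a mean above background, among them Cd3d (mean log2 difference, deficient-labelled minus control, -0.09), Arpp21 (-0.12) and the recombination gene Rag2 (-0.22), none of which passed the test. Of the 14 differences 10 were negative (median -0.09). Cd8a was near the limit, at 32.7, 29.5 and 30.1 on control and 18.5, 34 and 12 on deficient-labelled arrays. Cd8b1 and Cd4 passed it on every array. These 3 genes are named after their values were seen. Mean signal over all probes was 417 to 445 on the control arrays, 426 and 432 on deficient-labelled arrays 1 and 2, and 359 on deficient-labelled array 3, which therefore stands apart. The limit for background was 21.8 to 23.7, and 17152 to 17446 probes passed it per array. Pairwise correlations of the arrays over all probes were 0.983 to 0.993. With 3 arrays a group, precision is limited by their number.

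A minority of the start regions of the genes carry a motif of NRF1 (nuclear respiratory factor 1), and a minority 1 of GABP (also called NRF2). Both factors are known to act on nuclear respiratory genes. RefSeq promoters of the mouse assembly GRCm38.p6, each 250 bases before to 50 after a gene's start, were found for 64 of the 78 genes, 69 promoters in all. The NRF1 motif, searched on both strands as GCGC and TGCGC parted by 1 base of any kind, was in 17 of the 69 (24.6%) and in 4.6% of all 32851 promoters. The GABP motif CCGGAAG was in 16 (23.2%), against 8.86% of all. The YY1 motif AANATGGC was in 17 (24.6%), against 6.05% of all, and 12 of these 17 belonged to complex I, which had it in 37.5% of its 32 promoters. The windows here hold the matches upstream of the start in 7 members, at least 1 from each complex. They have the motif letters in capitals and up to 20 bases on either side, to show what the motifs look like. They belong to Ndufs3, Ndufa8, Uqcr11 and Atp5c1, described by array in what follows, and to Sdhd, Cox6b1 and Atp5h.
Ndufs3 (complex I, GABP, chr2:90904722-90904768, minus strand): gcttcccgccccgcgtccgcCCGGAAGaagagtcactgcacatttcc
Ndufa8 (complex I, NRF1, chr2:36049339-36049388, minus strand): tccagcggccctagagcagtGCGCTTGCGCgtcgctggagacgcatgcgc
Sdhd (complex II, NRF1 then GABP, chr9:50603869-50603948, minus strand): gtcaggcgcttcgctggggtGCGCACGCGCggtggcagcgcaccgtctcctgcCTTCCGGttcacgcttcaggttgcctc
Uqcr11 (complex III, GABP, chr10:80406861-80406907, minus strand): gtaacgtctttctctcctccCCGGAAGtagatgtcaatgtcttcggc
Cox6b1 (complex IV, GABP, chr7:30626116-30626162, minus strand): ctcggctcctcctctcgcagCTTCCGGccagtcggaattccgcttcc
Atp5c1 (complex V, NRF1, chr2:10080433-10080469, minus strand): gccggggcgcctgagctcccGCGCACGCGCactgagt
Atp5h (complex V, NRF1 then GABP, chr11:115419931-115420080, minus strand): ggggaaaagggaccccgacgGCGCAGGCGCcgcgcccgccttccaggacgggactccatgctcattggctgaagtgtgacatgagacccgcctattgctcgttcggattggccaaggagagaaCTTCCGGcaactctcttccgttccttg
The NRF1 and GABP motifs do not overlap in the 2 windows that hold both. A match describes letters only, and no binding was measured here. The shares over all promoters were not matched for base content.

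Across all members, no gene passed the test. limma with Benjamini-Hochberg adjustment over all 19057 genes called 0 of 78, against 0.0105% of all genes called higher and 0% called lower at an adjusted p of 0.05. The lowest adjusted p among the members was 0.548, for Ndufs3. At an unadjusted p of 0.05, 1 member was higher (Cox7a2) and 1 lower (Ndufs3), against 3.51% and 4.09% of all genes and 4.72% and 6.31% of genes above background. The arrays of the 2 groups did not overlap for 2 members in the higher direction (Uqcrq and Cox7a2) and 6 in the lower (Ndufs3, Ndufa8, Ndufv1, Sdhc, Cox7a2l and Cox6b2), against 5.48% and 6.09% of all genes. Among the genes above background the shares without overlap were 7.71% and 9.63%. Overlap was judged on normalized values. In the deposited signals the groups stayed apart for Ndufs3 and Sdhc. They overlapped for Ndufa8, Ndufv1, Uqcrq, Cox7a2, Cox7a2l and Cox6b2. For Uqcrq the deposited signal of deficient-labelled array 3, 652.6, was the lowest of the 6 arrays.

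The size of the differences was small for nearly all members. The 68 differences ran from -0.25 to 0.21 on the log2 scale around a median of -0.015, beside -0.0093 for the 9208 genes above background. The sign of this median depends on the scaling: it was 0.0045 (genes above background 0.015) after cyclic loess and -0.090 (-0.078) after centring each array on its median. Differences were under 0.1 in size for 55 of the 68 and over 0.2 for 5. The 95% interval of the difference lay within 1.5-fold in both directions for 62 members (91.2%), against 67.7% of the genes above background. These 2 sets differ in brightness. A mean signal above 2000 was found for 52 of the 68 members and for 1509 of the 9208 genes above background. The intervals were not compared at like signal. The medians of the complexes were -0.0038 for complex I, -0.019 for complex II, -0.0097 for complex III, -0.037 for complex IV and -0.022 for complex V. These signs are not stable. After cyclic loess the medians were 0.0066, -0.0019, 0.014, -0.0062 and 0.0050 for complexes I to V, with an offset of 1 complex II was at 0.014, and with probes averaged per gene complex V was at 0.0063. All 31 members of complex I and all 6 of complex III had intervals within 1.5-fold, as did 2 of 3 of complex II, 9 of 13 of complex IV and 14 of 15 of complex V.

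**Figure D1:**
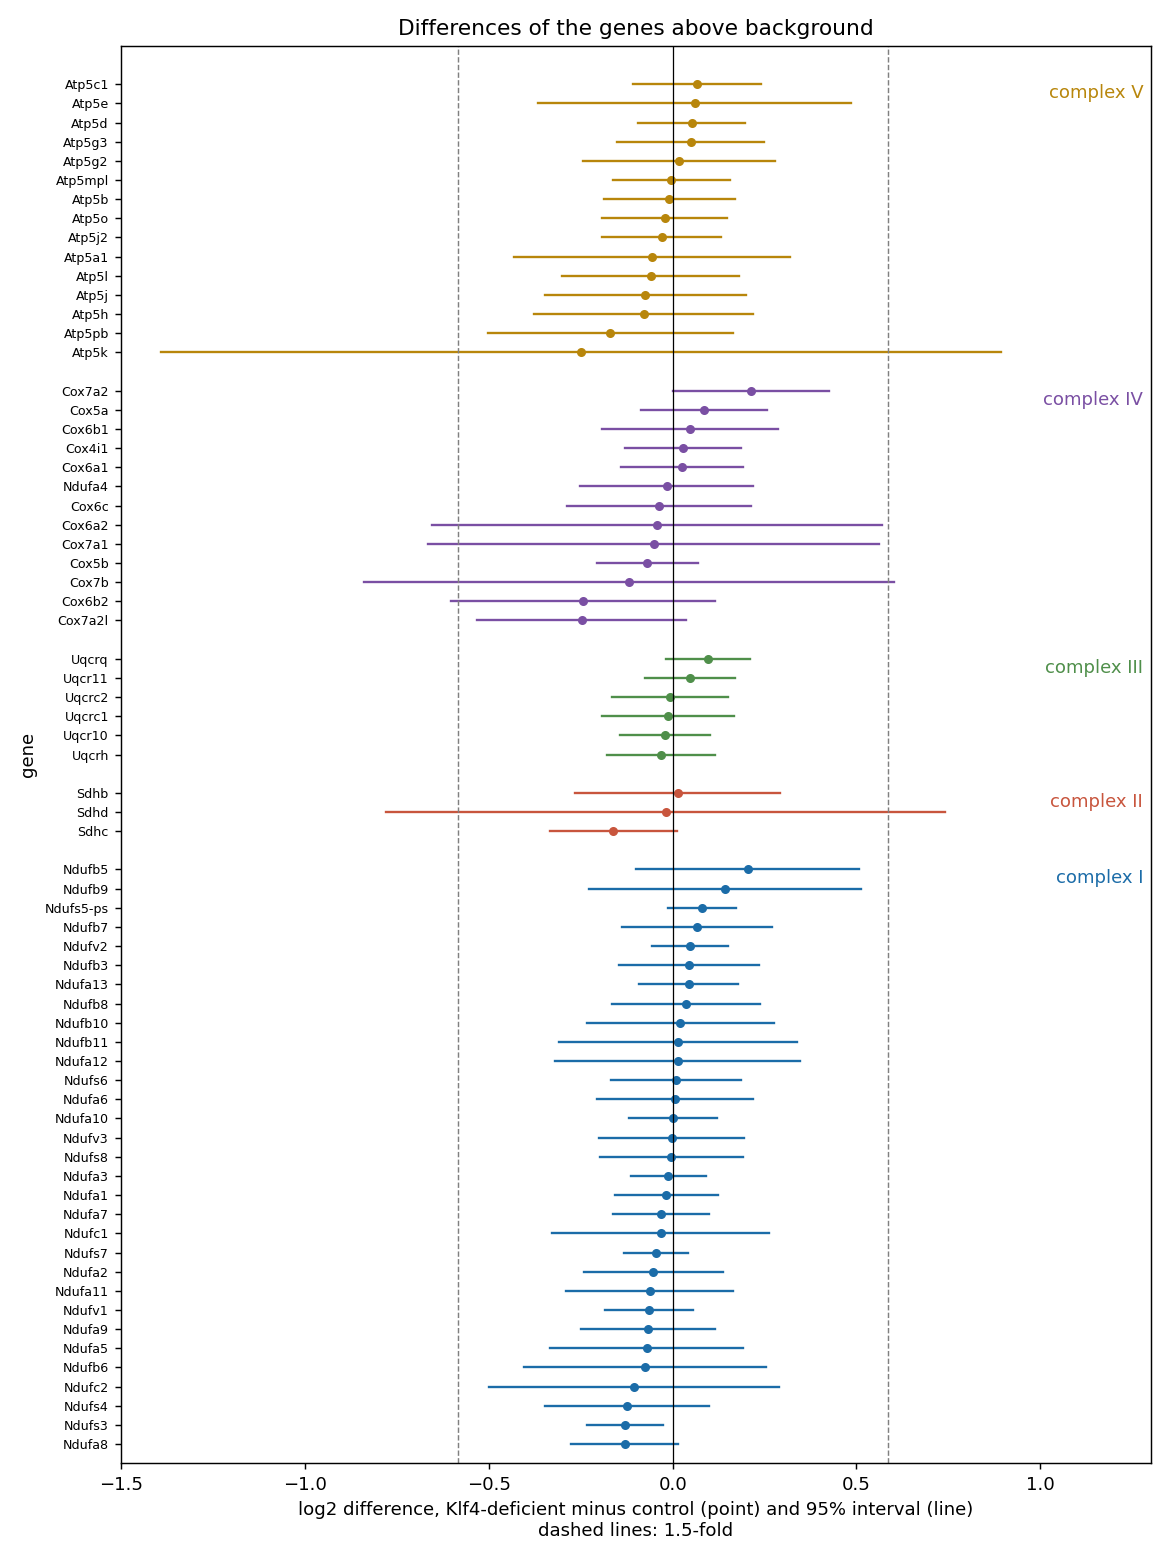
The log2 difference, deficient-labelled minus control, is drawn as a point with its 95% interval as a line for each of the 68 members above background, grouped and coloured by complex, with dashed lines at 1.5-fold. Points lie between -0.25 and 0.21, and the widest interval is that of Atp5k.

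In complex I, the NADH dehydrogenase, 16 of all 34 genes had a positive and 17 a negative difference, and Ndufs1, whose probe was below 0 on every array, had none. Ndufs3, a core subunit of the arm that holds the iron-sulfur clusters, had a normalized log2 signal of 11.17, 11.19 and 11.15 on the control arrays and 11.02, 11.12 and 10.99 on the deficient-labelled arrays. All 3 deficient-labelled arrays were under all 3 controls, by -0.13 ± 0.04 (SE), with an adjusted p of 0.548 in limma. Ndufa8, an accessory subunit, gave 12.21, 12.15 and 12.15 against 12.08, 12.10 and 11.93. The groups did not overlap either, and array 3 was the lowest. The difference was -0.13 with a 95% interval of -0.28 to 0.01. Its second probe above background had a difference of 0.0019, so the 2 probes do not give the same size.

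The remaining core subunits of that arm were Ndufv1, Ndufv2, Ndufs7 and Ndufs8, and 4 of the 5 measured above background had a negative difference (median -0.046). Ndufv1, which binds the flavin that takes electrons from NADH, gave 12.39, 12.38 and 12.37 against 12.36, 12.37 and 12.22. Its arrays did not overlap, but only array 3 lay clearly apart from the controls, and the difference was -0.06 (95% interval -0.19 to 0.06). Ndufs5-ps, a pseudogene by its name whose probe cannot be told apart here from one for its parent gene, gave 11.09, 11.19 and 11.13 against 11.21, 11.26 and 11.18. Deficient-labelled arrays 1 and 2 were above all controls and array 3 was not. The 25 accessory subunits above background were split, 12 positive and 13 negative, with a median of -0.0030.

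Complex II, succinate dehydrogenase, also works in the citric acid cycle. Sdhc, which with Sdhd anchors the enzyme in the membrane, gave 11.35, 11.43 and 11.31 on the control arrays and 11.30, 11.22 and 11.09 on the deficient-labelled arrays. The groups did not overlap, and the difference was -0.16 (95% interval -0.34 to 0.01, adjusted p = 0.694 in limma). Sdhb, the iron-sulfur subunit, gave 10.49, 10.40 and 10.42 against 10.56, 10.57 and 10.23. Arrays 1 and 2 were above all controls and array 3 below all of them, so the difference was 0.01 with an interval of -0.27 to 0.29. Its second probe above background gave deposited signals of 1188.7, 1135.8 and 1321.2 against 1144.6, 1168.6 and 913, for a difference of -0.07. At that probe the deposited signals of arrays 1 and 2 lay among the controls. Sdhd was near the background limit, at 5.50, 4.72 and 5.55 against 5.46, 5.30 and 4.95, and its interval of -0.78 to 0.74 leaves its difference undetermined. The probe for the flavoprotein Sdha was under the limit on all 6 arrays.

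Complex III is the cytochrome bc1 complex. Uqcrq, a small subunit, gave 9.53, 9.58 and 9.60 on the control arrays and 9.74, 9.65 and 9.60 on the deficient-labelled arrays. The deficient-labelled arrays lay above the controls with no overlap, but the lowest of them and the highest control were the same to 2 decimals. The difference was 0.10 (95% interval -0.02 to 0.21). Uqcr11, another small subunit, gave 12.33, 12.45 and 12.43 against 12.49, 12.46 and 12.39, with a difference of 0.05. Uqcrh, the hinge subunit, gave 13.56, 13.50 and 13.56 against 13.55, 13.56 and 13.41, with a difference of -0.03. Both had overlapping groups. The core proteins Uqcrc1 and Uqcrc2 differed by -0.012 and -0.0069.

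Complex IV, cytochrome c oxidase, held the member with the largest positive and one of the largest negative differences among genes above background. Cox7a2, the widely expressed form of subunit 7a, gave 6.64, 6.57 and 6.46 on the control arrays and 6.79, 6.77 and 6.74 on the deficient-labelled arrays. All 3 deficient-labelled arrays were above all controls, by 0.21 ± 0.08 (SE), with an adjusted p of 0.654 in limma. The deposited signals of this dim probe were 91.1, 77.2 and 74.6 against 93.7, 94.9 and 82.8. They overlap, so the groups were apart only after normalization, as also for Cox7a2l and Cox6b2 in this complex. Cox7a2l, a related protein that joins complex III and complex IV in supercomplexes, gave 12.58, 12.51 and 12.55 against 12.49, 12.31 and 12.09. Its difference was the opposite, -0.25 (95% interval -0.53 to 0.04), with no overlap and the widest gap on array 3. Cox6b2, the testis form of subunit 6b, gave 7.19, 7.13 and 7.37 against 6.75, 7.08 and 7.13, with a difference of -0.24 (95% interval -0.60 to 0.11). Here array 1 was the lowest and array 3 nearly reached the lowest control.

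Several complex IV subunits exist as a common and a tissue-restricted isoform, and these are given as deposited signal. Cox4i1 gave 10823.9, 11163.1 and 11676.3 on the control arrays and 12053.7, 11142.8 and 8827.2 on the deficient-labelled arrays, while Cox4i2, its lung and hypoxia form, was under the limit on all 6 (highest 15.7). Cox6a1 gave 10335.4, 10226.8 and 10696.1 against 11001.7, 11095.9 and 7856.8, and its heart and muscle form Cox6a2 gave 105.2, 77.6 and 126.7 against 70.5, 128 and 85.6. In each, the deficient-labelled arrays spanned the control values. Cox6b1 gave 11091.8, 12452.1 and 12539.1 against 11661.1, 13486.1 and 9691.1.

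The heart and muscle form Cox7a1 gave 163.8, 222.9 and 203.8 against 220.1, 208.2 and 121.2. Cox7b gave 28.3, 32.3 and 61 against 41.5, 35.5 and 23.7, close to the limit. Cox7b2, Cox8b and Cox8c were under the limit on all 6 arrays, and Ndufa4, once counted with complex I and assigned here to complex IV, gave 8631.3, 9004.8 and 8901 against 8770.5, 9463.4 and 6255. After normalization the 4 common forms Cox4i1, Cox6a1, Cox6b1 and Ndufa4 differed by 0.03, 0.03, 0.05 and -0.02. None of the isoforms passed the test. Of the tissue-restricted forms, 3 of 7 were above background (Cox6a2, Cox6b2 and Cox7a1), with differences of -0.04, -0.24 and -0.05, and none of the 3 intervals lay within 1.5-fold.

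**Figure D2:**
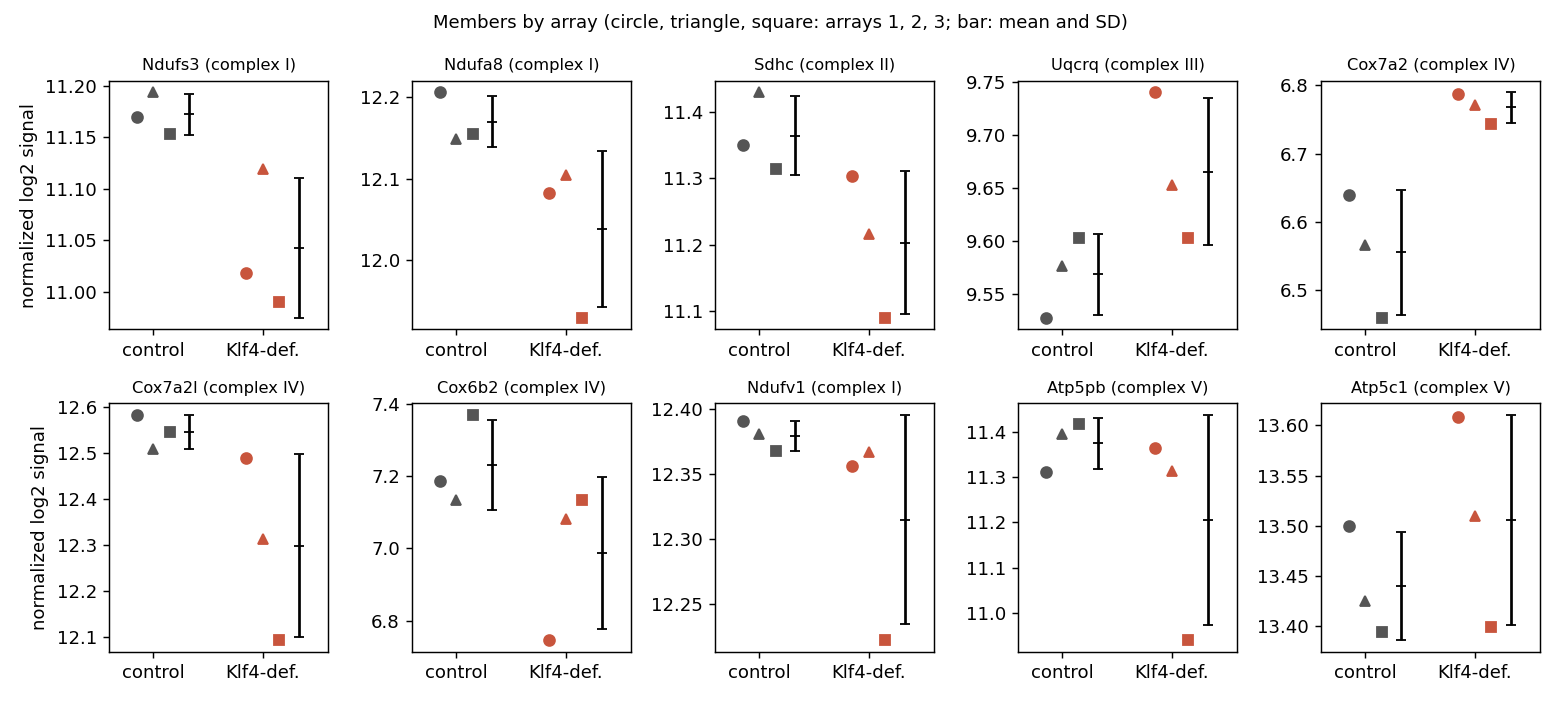
Each panel gives the normalized log2 signal of 1 member on control arrays (grey) and deficient-labelled arrays (red, marked Klf4-def.), with circle, triangle and square for arrays 1, 2 and 3 and a bar for the mean and SD of 3 arrays. The first 8 panels are the members whose groups do not overlap, and Atp5pb and Atp5c1 are complex V members whose groups do overlap. Vertical axes differ between panels and do not start at 0.

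In complex V, no member had groups without overlap. Atp5pb, the b subunit of the peripheral stalk that holds the head still, gave 11.31, 11.40 and 11.42 on the control arrays and 11.36, 11.31 and 10.94 on the deficient-labelled arrays. Array 3 alone was lower, and the difference was -0.17 (95% interval -0.50 to 0.16). Atp5c1, the gamma subunit of the rotating shaft, gave 13.50, 13.43 and 13.39 against 13.61, 13.51 and 13.40. Arrays 1 and 2 were above all controls and array 3 was among them, with a difference of 0.07 (95% interval -0.11 to 0.24).

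Atp5d, the delta subunit of the F1 part, gave 11.64, 11.80 and 11.66 on the control arrays and 11.78, 11.69 and 11.79 on the deficient-labelled arrays, with a difference of 0.05. Its groups overlapped and array 3 was not the lowest. By part of the enzyme, the median differences were 0.05 for the 5 genes of the F1 head, 0.034 for the 2 c-ring genes, -0.077 for the 4 peripheral stalk genes and -0.045 for the 4 membrane subunits above background. All 4 stalk genes (Atp5pb, Atp5h, Atp5j and Atp5o) and all 4 membrane subunits (Atp5k, Atp5l, Atp5j2 and Atp5mpl) had their lowest value on deficient-labelled array 3, as had 3 of the 5 head genes and 0 of the 2 c-ring genes.

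Different probes for a gene gave differences close to each other in most cases, which says little where most differences are near 0. Of 20 members with more than 1 probe above background, 15 had probe differences within 0.1 of each other on the log2 scale (median range 0.065, highest 0.43). In 12 of the 20 the probes had opposite signs, which for most was around a difference near 0. Atp5a1, the alpha subunit, had signals of 1037.8, 691.6 and 837.7 on the control arrays and 872.1, 827 and 597.7 on the deficient-labelled arrays at its brightest probe, and 242.9, 209.4 and 193 against 288.2, 244.1 and 198.3 at its second. The differences were -0.06 and 0.25, and neither passed the test.

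Atp5pb was the other gene with opposite signs at a size over 0.2. Its brightest probe gave 2679.8, 2640.6 and 2905 on the control arrays and 2643.5, 2636.6 and 1655.4 on the deficient-labelled arrays, for a difference of -0.17. Its second probe gave 2480.8, 2056 and 2289.7 against 2438.9, 2345.8 and 1821.2, for 0.06. The remaining 2 probes, both dim, gave -0.13 and 0.26. The lower value of array 3 was thus smaller at the second probe, and the direction for Atp5pb depends on the probe.

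Deficient-labelled array 3 had the lowest family median of the 6 arrays. The median over the 68 members of the normalized log2 signal minus the control mean was -0.024, 0.036 and -0.0031 on control arrays 1 to 3, 0.042 and 0.051 on deficient-labelled arrays 1 and 2, and -0.12 on array 3. The array 3 value moved with the scaling, to -0.38 after median centring, -0.39 with no normalization and -0.065 after cyclic loess. Over all genes above background array 3 stood at -0.035, and over the 1509 genes with a mean signal above 2000, as 52 of the members have, at -0.041. Array 3 was the lowest of the 6 arrays for 38 of the 68 members (55.9%) and the highest for 0, against 29.8% lowest and 22.5% highest among genes above background. It was the lowest for 62 members (91.2%) after median centring or with no normalization, against 61.4% and 61.2% of genes above background, and for 29 (42.6%) after cyclic loess, against 21.1%. Among genes with a mean signal above 2000 the lowest share was 34.5% for all and 61.5% (32 of 52) for members. The distance of the members from the genes above background on this array was -0.082 after quantile normalization, -0.11 after median centring or with no normalization, and -0.091 after cyclic loess. These are descriptions of 1 array with no test.

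By complex the array 3 median was -0.12 for complex I, -0.27 for complex II, -0.017 for complex III, -0.098 for complex IV and -0.13 for complex V. It was the lowest array for 18 of 31 members of complex I, 2 of 3 of complex II, 1 of 6 of complex III, 6 of 13 of complex IV and 11 of 15 of complex V. Median centring gave medians of -0.40, -0.51, -0.30, -0.37 and -0.42 for complexes I to V and made array 3 the lowest for 29, 2, 6, 10 and 15 of their members. Cyclic loess gave -0.071, -0.23, 0.027, -0.043 and -0.099, and 14, 2, 1, 5 and 7 members. The members farthest below the control mean on array 3 were Atp5k (-1.08), Cox7a2l (-0.45), Cox7a1 (-0.44), Atp5pb (-0.44), Cox7b (-0.39) and Ndufc2 (-0.37), and the one farthest above was Cox7a2 (0.19). Ndufc2 is named here after its values were seen. Atp5k, a membrane subunit, carried deposited signals of 74.1, 114.5 and 81.2 on the control arrays and 86.2, 114.1 and 30.1 on the deficient-labelled arrays, so that array 3 alone lay apart. Its difference of -0.25 has an interval of -1.39 to 0.89.

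**Figure D3:**
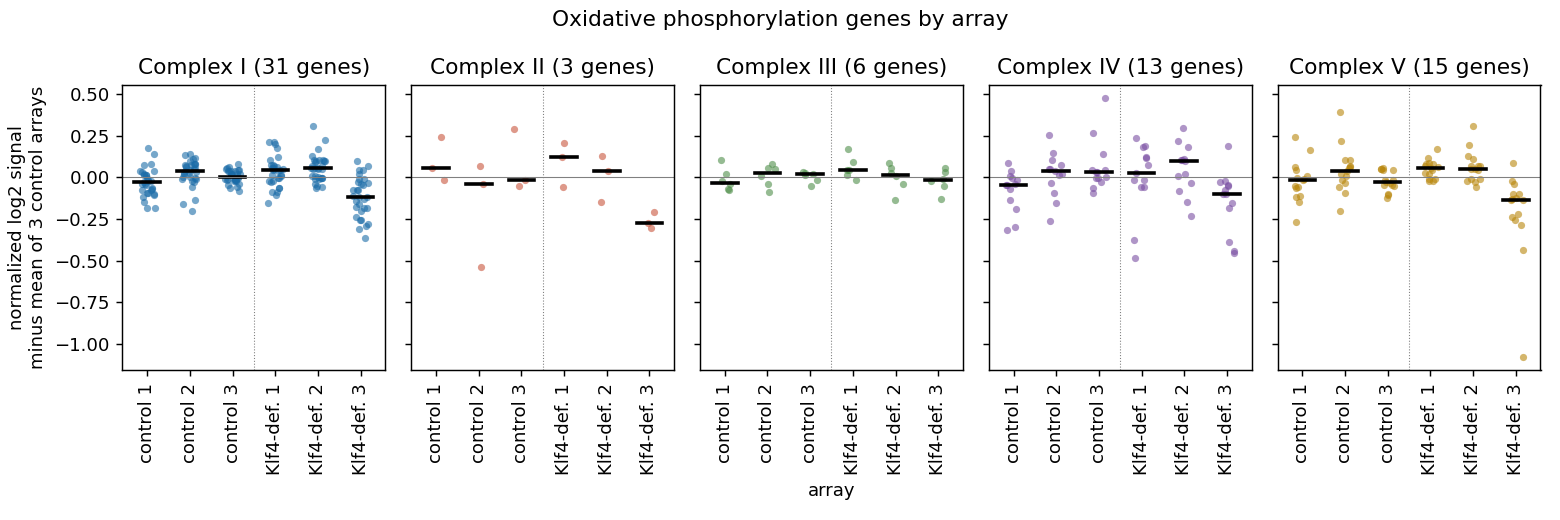
Each dot is 1 member above background and gives its normalized log2 signal on an array minus its mean over the 3 control arrays, with 1 panel per complex and a black bar for the median. Bars for array 3 of the deficient-labelled group (Klf4-def. 3) lie at -0.12, -0.27, -0.017, -0.098 and -0.13 in complexes I to V, and 1 dot of complex V, Atp5k, lies at -1.08.

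Without deficient-labelled array 3 the family's median turned from -0.015 to 0.039, and the genes above background moved from -0.0093 to 0.0023. In that fit 51 of 68 members (75.0%) had a positive difference, against 50.7% of the genes above background, and in the fit of all 6 arrays 27 did. The test called 0 members again, beside 0.11% of all genes, and the lowest adjusted p of a member was 0.533 (limma). At an unadjusted p of 0.05, 4 of the 68 members were higher (5.88%) against 5.08% of genes above background and 4.2% of all genes, and 0 were lower against 3.67% of all. The 4 were Ndufa12 at 0.15, Sdhb at 0.13, Uqcrq at 0.13 and Cox6a1 at 0.09, of which Ndufa12 and Cox6a1 are named after their values were seen. For Sdhb and Cox6a1 this rise depends on the probe. At the second probe above background of each, the deposited signals of arrays 1 and 2 lay among the controls. For Cox6a1 they were 7724 and 7267.5, against 7898.5, 7209.4 and 7251.8 on the control arrays. Ndufs3 (-0.10), Ndufa8 (-0.08) and Cox7a2l (-0.14) kept a negative difference and Cox7a2 (0.22) a positive one.

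Markers of other marrow cells also stood high on this array, although a sort for GFP, CD4 and CD8 as labelled is meant to leave such cells out. Genes of an erythroid list had medians of 0.17, 0.85 and 1.43 above the control mean on deficient-labelled arrays 1, 2 and 3, those of a neutrophil list -0.20, -0.065 and 1.44, and those of a monocyte and macrophage list 0.17, 0.72 and 1.27. A list for NK and cytotoxic cells stood at 0.021, 0.30 and 0.49, and its 6 genes above background at 0.43, 1.01 and 1.09. The difference was positive for 18 of 20 measured erythroid genes, 15 of 17 neutrophil genes, 22 of 22 monocyte and macrophage genes and 10 of 15 NK and cytotoxic genes, and none passed the test. Their lowest unadjusted p-values belonged to Tfrc (0.53), Hbb-bt (0.25) and Hba-a1 (0.25) for erythroid cells, Prtn3 (0.66), Mmp8 (-0.06) and Ctsg (0.58) for neutrophils, Csf1r (1.27), Mrc1 (0.94) and Spic (1.39) for macrophages, and Klrd1 (1.33), Ctsw (0.91) and Ccl5 (1.36) for NK and cytotoxic cells, the value being the log2 difference. The 3 further lists had array 3 medians of 0.32 for B lineage (Ms4a1 0.56, Igll1 -0.75, Cd22 0.62), 0.048 for megakaryocytes (Pf4 0.31, Vwf -0.08, Gp9 0.25) and -0.23 for stroma (Pecam1 -0.26, Lepr -0.37, Col3a1 -0.30). Of the genes named, Ms4a1, Cd22, Pf4, Vwf, Lepr and Col3a1 were under the background limit by their mean. Above it were 7 of 11 B lineage, 3 of 12 megakaryocyte and 3 of 13 stromal genes. These stood at 0.32, 0.44 and -0.17 on array 3.

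Summed deposited signal was 99507 to 122903 on control and 119888 to 140230 on deficient-labelled arrays for the erythroid list. It was 77144.5 to 107398 and 78169.2 to 152195 for the neutrophil list, and 14691.8 to 19540.7 and 17197.6 to 35029.4 for the monocyte and macrophage list. For the NK and cytotoxic list it was 2186.4 to 3166 and 2696.5 to 3632.7. Under the limit by their mean were Gata1, Hbb-b2, Cldn13, Epb42 and Rhd of the erythroid list, Mmp8 of the neutrophil list, 9 of 22 of the monocyte and macrophage list, Cd14, Itgam and Cd163 among them, and 9 of 15 of the NK and cytotoxic list, Ncr1 and Gzmb among them. The double-positive thymocyte list stood at -0.075, -0.049 and -0.026 on the 3 deficient-labelled arrays. The part of these cells in the values of the respiratory genes was not tested, and in bulk RNA fewer cells of a type and less RNA per cell cannot be told apart.

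**Figure D4:**
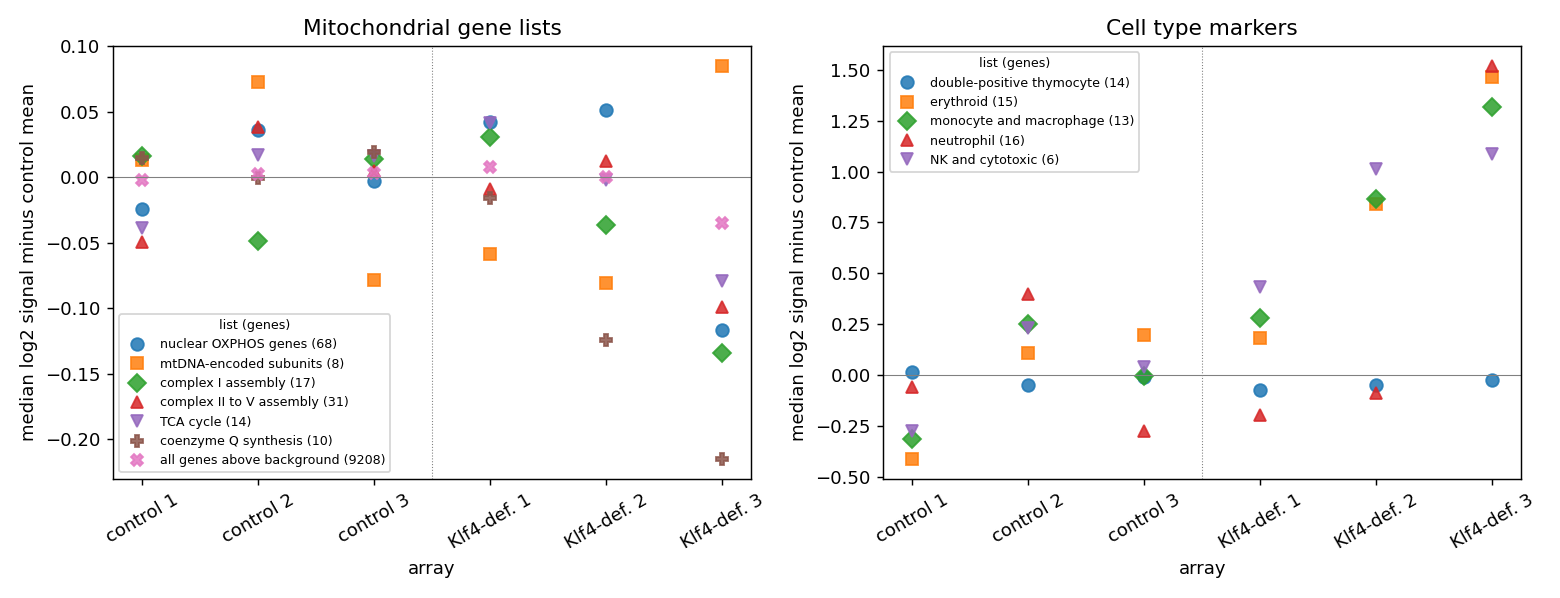
Each symbol is the median over the genes of a list above background of the normalized log2 signal minus the control mean, by array (Klf4-def. marks the deficient-labelled arrays), for mitochondrial lists on the left and cell type markers on the right, with different vertical scales. On deficient-labelled array 3 the nuclear subunit genes lie at -0.12, the mitochondrially encoded subunits at 0.085 and the erythroid markers above background at 1.47.

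The subunits encoded in mitochondrial DNA stood higher than the nuclear ones on array 3, by 0.18 to 0.20 in the medians under the 4 scalings tried. The 8 measured here had medians of 0.013, 0.073 and -0.079 on the control arrays and -0.059, -0.081 and 0.085 on the deficient-labelled arrays, so array 3 was the highest of the 6 after quantile normalization, as after cyclic loess (0.13), but the lowest after median centring (-0.20) and with no normalization (-0.21). For single genes, array 3 was the lowest for 1 of the 8 after quantile normalization. Their median difference was -0.022, and 0 of 8 passed the test. Before normalization, their summed deposited signal was lower on all 3 deficient-labelled arrays. It was 54306.5 to 57892.3 there and 60300.7 to 66332.9 on the control arrays, and this sum was not tested. ND5 (mt-Nd5) gave deposited signals of 78.9, 83.3 and 69.3 against 36.4, 71 and 54.6, a difference of -0.37 with an interval of -0.94 to 0.19. CYTB (mt-Cytb), the cytochrome b of complex III, differed by -0.07 and ND6 (mt-Nd6) by 0.13. The difference between nuclear and mitochondrial subunits on this array is 1 array's value and was not tested.

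Genes that build or feed the complexes held no call either. Of 34 measured assembly factors for complexes II to V, 0 passed the test, 1 was higher and 2 lower at an unadjusted p of 0.05 (3.51% and 4.09% of all genes), and the median difference was -0.026. Uqcc1, which assembles complex III, gave deposited signals of 1090.9, 975.1 and 1047.6 on the control arrays and 914.4, 900.1 and 723.9 on the deficient-labelled arrays. The groups did not overlap, and the difference was -0.20 (95% interval -0.28 to -0.12, adjusted p = 0.388 in limma). Sco1, which delivers copper to complex IV, differed by -0.21 and Coa4, another complex IV factor, by 0.13.

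Of 19 complex I assembly factors 0 passed even at an unadjusted p of 0.05, with a median of -0.038. Those with the smallest p were Dmac2 (-0.20), Foxred1 (-0.09) and Tmem186 (-0.16). Of 17 genes of the citric acid cycle and pyruvate dehydrogenase 0 passed the test, and Dlat, the E2 subunit of pyruvate dehydrogenase, gave 172.5, 160.7 and 175.3 against 148.2, 149.4 and 127.9. Its groups did not overlap and its difference was -0.16 (95% interval -0.27 to -0.05, adjusted p = 0.519 in limma). Idh3g and Dlst, of the citric acid cycle, differed by -0.09 and 0.13. On deficient-labelled array 3 the complex I assembly list stood at -0.13, that for complexes II to V at -0.089 and the citric acid cycle list at -0.073. All 78 members stood at -0.11 there, so a low median on this array was not particular to the subunits. The 20 regulators described below stood at -0.028.

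Coenzyme Q carries electrons from complexes I and II to complex III. Of 11 measured genes of its synthesis and use 9 had a negative difference, with a median of -0.087, and 0 passed the test. On deficient-labelled array 3 the list stood at -0.20. Coq10a differed by -0.11 and Coq6 by -0.15, while Coq8a was under the background limit. Carriers and channels had a median of 0.0093 over 10 genes, with Slc25a3, the phosphate carrier, at 0.15, the ADP/ATP carrier Slc25a5 at 0.04 and Vdac3, an outer membrane channel, at 0.11.

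Of 7 subunits and carriers outside the symbol pattern 0 passed the test, among them cytochrome c (Cycs, 0.11), the ATP synthase inhibitor Atpif1 (0.11) and Higd2a (-0.07), a factor of complex IV. On array 3 these 7 stood at -0.073.

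The regulators of mitochondrial transcription and of nuclear respiratory genes were 20, of which 0 passed the test. At an unadjusted p of 0.05, 2 were higher and 2 lower, beside 3.51% and 4.09% of all genes and 4.72% and 6.31% of those above background. Mterf1a (-0.28), Mterf3 (0.24) and Tfb2m (-0.22), all of which act on mitochondrial DNA transcription, had the smallest p-values. Tfb2m gave deposited signals of 651.2, 510.2 and 599.5 on the control arrays and 495.3, 521.6 and 386.8 on the deficient-labelled arrays, and Mterf3 gave 694.3, 558 and 585.7 against 706.3, 671.1 and 631.8. After normalization the groups of both did not overlap. The factors of the motifs searched, named after their values were seen, differed by -0.05 for Nrf1 (95% interval -0.29 to 0.18) and -0.02 for Gabpa (-0.38 to 0.34), and the Yy1 probe was under the limit.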

How the data were processed

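The authors deposited linear probe intensity values, and the submitters' processing notes name BeadStudio. Its version, the background method, the normalization and the genome build were not given in the sources used here. Between 31.3% and 34.2% of an array's values were below 0. Negative values were raised to 0, an offset of 16 was applied, and the log2 values of all probes were quantile normalized. Of 45281 probes, 34885 had 1 gene symbol, 18 several and 10378 were unnamed here, and the last 2 kinds were left out. The brightest probe stood for a gene. The background limit was 3 SDs of the mirrored negative values, 22.6 on average.

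Differences, on the log2(value + 16) scale, came from limma 3.58.1 in R 4.3.3 (lmFit and trended eBayes). P-values were adjusted over 19057 genes by Benjamini-Hochberg, with a threshold of 0.05. The limma step alone was run on simulated data, with changes larger than any member difference here. That run does not show how well differences of the members' size are found. The members and gene lists were chosen with earlier results of these data known.

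Values by array were given for up to 3 members per complex with the smallest unadjusted p above background, for tissue isoforms, and for members whose probes differed in sign at a size over 0.2. Ndufv1 and Atp5k were outside this rule and are given by array after their values were seen. Up to 3 genes with the smallest p were named from every other list. Alternatives were other scalings, offsets, filters, probe rules, no variance trend, a replicate block, and leaving out each array. Ndufa4 was counted with complex IV.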

Additional observations from a re-analysis of the deposited data

How the results depend on the processing

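Under 17 alternatives 0 members were called in any. Of 1156 values (68 members by 17), 147 changed sign and 97 moved by over 1 SE. Centring arrays on the median gave a member median of -0.090, with 91.2% of members negative against 67.9% of genes above background, whose own median was -0.078; complexes I to V stood at -0.089, -0.080, -0.081, -0.099 and -0.089. No normalization gave -0.12 (genes above background -0.11), with 94.1% negative against 72.7%, Uqcrq at -0.01, and complexes I to V at -0.12, -0.11, -0.11, -0.13 and -0.12. Cyclic loess left 47.1% negative against 46.4%, and quantile normalization 60.3% against 52.1%. At an unadjusted p of 0.05, 0 members were higher and 0 lower with centring or no normalization, 2 were lower with cyclic loess, and 0 were higher with offset 50 or a filter on genes above background. Of all genes, the counts called higher were 1 (centring, cyclic loess, offset 50, every probe, no variance trend), 4 (no normalization, offset 1) and 0 (mean of a gene's probes), against 2, and 1 was lower with no normalization or offset 1. Leaving out 1 array at a time gave 1 to 21 genes called higher and 0 to 8 lower, 0 to 5 members higher and 0 to 2 lower at an unadjusted p, a member median of -0.046 to 0.039, and medians of -0.049 to 0.041 (complex I), -0.13 to 0.12 (II), -0.027 to 0.025 (III), -0.080 to 0.064 (IV) and -0.038 to 0.036 (V). The cause of these changes was not tested.

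Both groups carry replicate numbers 1 to 3. Deviations from the group means correlated by 0.14, -0.041 and -0.066 for numbers 1, 2 and 3. Between unlike numbers the correlations ran from -0.17 to 0.17. With 3 arrays a group these values cannot tell whether the numbers pair the samples. With the replicate block 0 genes were called higher and 0 lower, 0 members were called, and 1 member was higher and 1 lower at an unadjusted p of 0.05.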
